A study of Mus musculus with 78 samples.

Results

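The genes described here are 7 liver genes whose expression follows the rhythm of growth hormone release: Mup3, Elovl3, Hsd3b5, Selenbp2, Bcl6, Cux2 and Prlr. They were chosen by name, for their known place in growth hormone biology and with earlier results of these data known, and each was matched by its exact symbol to the probe sets of the array, keeping the probe set with the highest mean over all 78 arrays. The match gave 1 probe set each for 6 of the 7 genes, out of 19938 genes with a probe set of their own. Prlr, the prolactin receptor, was matched to no probe set and is not analysed here.

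Liver RNA of 78 female mice was measured, 1 array per mouse. In the age series, 4 Npc1-/- mice and 4 Npc1+/+ littermates, from crosses of heterozygotes in the line BALB/cNctr-Npc1m1N/J, were taken at each of 6 ages, every other week from week 1 to week 11, the mutants being labelled as before symptoms at 1 and 3 weeks and after their onset later. In the 12-week set, Balb/cJ mice of the genotype Npc1+/+ formed 6 groups of 5: Npc1 antisense oligo with N-acetyl-cysteine (NAC, an antioxidant), control antisense oligo with NAC, Npc1 antisense oligo alone, control antisense oligo alone, mice fasted overnight, and untreated mice. Oligos and NAC were given for 4 weeks, from week 8 to week 12 of age. NPC1 is the protein that carries cholesterol out of late endosomes and lysosomes, and an antisense oligo lowers the RNA it pairs with. The Npc1-/- mice carried the mutation from conception in every cell type, whereas the oligo was given to adults. No group of the age series was fasted or injected, and the 2 sets differ in line, in age and possibly in how the liver was kept, so levels of the 2 sets are set side by side without a test.

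Growth hormone leaves the pituitary in spaced pulses in male rodents and more evenly in females, and the liver reads this pattern through the growth hormone receptor, the kinase JAK2 and the transcription factor STAT5b. Pulses switch on a male-predominant set of hepatocyte genes, to which Mup3, Elovl3, Hsd3b5 and Selenbp2 belong in mice, and steady exposure favours a female-predominant set. Bcl6, a male-predominant repressor of transcription, and Cux2, a female-predominant one, each hold down part of the opposite set. These patterns appear after weaning and through puberty.

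The 300-base windows around the annotated start of transcription (250 bases before it and 50 after it) were read for 5 of the 6 measured genes from the RefSeq promoter table, build GRCm38.p6. Each window was searched for TTCNNNGAA, the palindrome that STAT5 binds, which is the same search on both strands, and for ATCAAT on either strand, a core that ONECUT1 and CUX2 can bind. One of the 2 windows of Bcl6 held 3 copies of TTCNNNGAA, at -168, -122 and -88 from the start. Of the 32851 windows in the table, 8.3% held at least 1 copy and 0.033%, or 11 windows, held 3 or more. The other window of Bcl6, chr16:23988803-23989102, held 1 copy at -118. The windows of Mup3, Hsd3b5, Selenbp2 and Cux2 held 0 copies. Mup3 was the only one of these genes with ATCAAT, with 2 copies at -162 and -100. Of all windows, 0.69% held 2 or more copies and 7.54% at least 1. These matches describe the letters of the windows, and binding was not measured. The windows of Mup3, the gene with the widest range, and of Bcl6, the gene with the densest STAT5 letters, are printed 5′ to 3′ along the gene's minus strand. Capitals mark ATCAAT or its reverse complement in Mup3 and TTCNNNGAA in Bcl6.
Mup3, chr4:62087268-62087567: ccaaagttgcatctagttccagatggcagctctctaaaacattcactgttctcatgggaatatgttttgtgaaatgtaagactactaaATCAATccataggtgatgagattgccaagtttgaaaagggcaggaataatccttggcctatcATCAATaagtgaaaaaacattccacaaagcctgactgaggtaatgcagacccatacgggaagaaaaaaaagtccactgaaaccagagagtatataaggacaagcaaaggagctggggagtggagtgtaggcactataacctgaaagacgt
Bcl6, chr16:23981234-23981533: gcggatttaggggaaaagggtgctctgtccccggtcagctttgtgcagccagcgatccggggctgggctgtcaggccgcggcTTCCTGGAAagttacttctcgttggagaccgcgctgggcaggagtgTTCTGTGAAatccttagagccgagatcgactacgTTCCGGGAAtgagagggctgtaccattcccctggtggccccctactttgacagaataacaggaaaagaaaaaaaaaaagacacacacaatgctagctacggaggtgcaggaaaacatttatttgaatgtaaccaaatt

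All values below are deposited log2 levels, and a difference is the mean of one group minus that of another on that scale, so that 1 unit is a doubling. Tests are limma fits across all genes of a set, with p-values adjusted by Benjamini-Hochberg over 12638 genes in the age series and 11900 in the 12-week set, and a gene was called at an adjusted p under 0.05. To be tested, a gene had to read above 5.54, which is the median over the whole table, in 4 or more mice of the set. Mup3, Selenbp2, Bcl6 and Cux2 passed in both sets. Elovl3 and Hsd3b5 passed in the age series through Npc1+/+ mice alone, so that they could hardly pass without a difference, and Elovl3 did not pass in the 12-week set. Without that filter the Elovl3 differences kept their calls from 3 to 11 weeks.

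The arrays were checked on the targeted gene and on markers. Npc1 read 7.97 to 9.20 in Npc1-/- mice and 8.80 to 10.54 in Npc1+/+ mice, was lower in Npc1-/- mice at every age, and read 6.68 to 7.55 under the Npc1 oligo, against 8.77 to 10.36 under the control oligo. Albumin read 13.15 to 13.77 and a list of 7 hepatocyte markers averaged 12.58 to 13.2 over all arrays. Of these 7, 4 were lower in Npc1-/- mice at 3 weeks (median -0.22), where 6.84% of all genes were called lower. Under the Npc1 oligo with NAC 4 were lower (median -0.20, against 14.7% of all genes). With NAC under the Npc1 oligo 3 were lower (median -0.17, against 4.27%). In the other comparisons of genotype, oligo, NAC and fasting 3 or fewer were lower. Of 10 macrophage markers, 8 to 10 were called higher in Npc1-/- mice at each age from 3 weeks on. Over all genes the share called higher at these ages was 8.9% to 18.8%. Under the Npc1 oligo 9 were higher without NAC (14.7% of all genes) and 8 with NAC (11.0%). Under the control oligo 5 were higher than in untreated mice (5.05% of all genes were called higher there). The list's median per group lay between 7.28 and 10.3 in Npc1-/- mice, against 6.59 to 7.05 in Npc1+/+ mice, and was 9.2 under the Npc1 oligo, against 7.47 under the control oligo. A list of 7 lymphocyte markers averaged 4.06 to 4.8 on every array. Mice 1 and 2 of Npc1+/+ at 3 weeks averaged 8.81 and 8.79 over 9 exocrine pancreas markers, and mouse 3 of Npc1-/- at 1 week averaged 9.24 over 10 skeletal muscle markers, each far above the other mice. In whole liver, fewer hepatocytes and less RNA per hepatocyte cannot be told apart, and the part of the other cell types in the results below was not tested.

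Mup3 encodes a major urinary protein, a small carrier of pheromones that the liver secretes into blood for excretion in urine. It had the widest range of the 6 genes, 3.75 to 11.98 over the 78 mice. At 1 week it was low in both genotypes, with 4.68, 4.09, 4.02 and 4.46 in Npc1-/- mice, against 4.3, 4.49, 4.28 and 3.75 in Npc1+/+ mice. The groups overlapped, and the difference was 0.11 ± 0.33 (SE, adjusted p = 0.929).

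At 3 weeks, around weaning, Mup3 was still at 4.5, 4.74, 4.69 and 5.28 in Npc1-/- mice, against 9.21, 9.06, 8.93 and 8.16 in Npc1+/+ mice. At 5 weeks it was at 9.36, 9.14, 7.19 and 9.38 in Npc1-/- mice, against 10.84, 11.34, 11.48 and 11.19 in Npc1+/+ mice. The mutants at 5 weeks therefore read about as high as the wild-type mice had read at 3 weeks, apart from mouse 3, which was lower. From 7 weeks on the wild-type mice stayed within 11.28 to 11.85, while the mutants lost Mup3 again.
Npc1-/- mice read 7.2, 7.53, 7.43 and 7.48 at 7 weeks, 7.9, 7.61, 6.47 and 6.81 at 9 weeks, and 6.55, 5.65, 4.99 and 4.53 at 11 weeks. The genotypes did not overlap at any age from 3 weeks on. In Npc1-/- mice Mup3 rose by 3.97 ± 0.33 between 3 and 5 weeks (adjusted p = 5.48e-12) and then fell by 3.34 ± 0.33 between 5 and 11 weeks (adjusted p = 5.69e-11). In Npc1+/+ mice it rose by 4.64 ± 0.33 between 1 and 3 weeks (24.9-fold, adjusted p = 1.97e-15) and by 2.37 ± 0.33 between 3 and 5 weeks (adjusted p = 2.7e-06), and the change between 5 and 11 weeks, 0.46 ± 0.33, did not pass (adjusted p = 0.687).

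The genotype difference in Mup3 was -4.04 ± 0.33 at 3 weeks (SE, adjusted p = 2.04e-12), -2.45 ± 0.33 at 5 weeks (adjusted p = 3.07e-07), -4.10 ± 0.33 at 7 weeks (adjusted p = 1.04e-13), -4.36 ± 0.33 at 9 weeks (adjusted p = 1e-14) and -6.24 ± 0.33 at 11 weeks (adjusted p = 3.84e-20). It was thus smallest at 5 weeks among these ages, and it differed between ages (limma moderated F test, adjusted p = 2.34e-13). With any 1 mouse left out the 5-week difference lay between -2.65 and -1.92. Without the 2 wild-type mice with pancreas markers the 3-week difference was -3.75 (adjusted p = 1.16e-08).

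**Figure D1:**
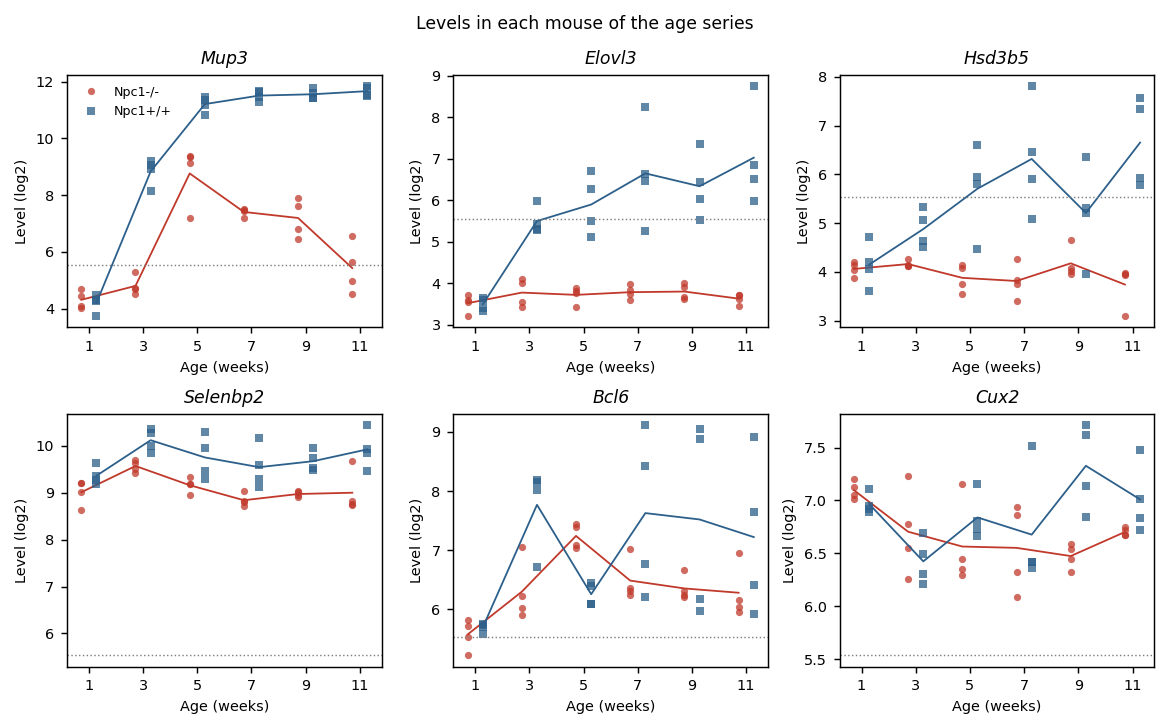
Levels (log2) of the 6 genes in each mouse of the age series against age in weeks, with Npc1-/- mice as red circles left of Npc1+/+ mice as blue squares, lines through the means of 4 mice, and a dotted line at 5.54, the median of all values. Mup3 rises and falls back in Npc1-/- mice, Elovl3 and Hsd3b5 stay low there at every age, and Bcl6 spreads widely among Npc1+/+ mice at 7, 9 and 11 weeks.

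Elovl3 elongates very long-chain saturated and monounsaturated fatty acids and, in mouse liver, also varies over the day. It stayed between 3.22 and 4.11 in all 24 Npc1-/- mice at all 6 ages. In Npc1+/+ mice it read 3.33 to 3.65 at 1 week, 5.28 to 5.99 at 3 weeks and 5.12 to 8.75 from 5 weeks on. The genotypes therefore overlapped at 1 week and at no later age. At 11 weeks Elovl3 read 3.46, 3.62, 3.73 and 3.72 in Npc1-/- mice, against 6.51, 5.98, 6.86 and 8.75 in Npc1+/+ mice. The difference was -3.39 ± 0.40 there (adjusted p = 1.89e-09), and it was -1.72 ± 0.40 at 3 weeks (adjusted p = 0.00186), -2.18 ± 0.40 at 5 weeks (adjusted p = 8.71e-05), -2.86 ± 0.40 at 7 weeks (adjusted p = 2.15e-07) and -2.54 ± 0.40 at 9 weeks (adjusted p = 2.05e-06).
In Npc1+/+ mice Elovl3 rose by 2.00 ± 0.40 between 1 and 3 weeks (adjusted p = 7.93e-05). In Npc1-/- mice no age effect passed (moderated F test, adjusted p = 0.982). Levels this far under the median of all values carry no detection call here, so whether Elovl3 was above background in the mutants was not tested and no fold is given.

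Hsd3b5 is a steroid reductase of the Hsd3b family that is made in the liver and predominates in males. It read 3.1 to 4.65 over the 24 Npc1-/- mice, with no age effect that passed (moderated F test, adjusted p = 0.869). In Npc1+/+ mice it read 4.72, 4.21, 3.61 and 4.05 at 1 week, 4.47, 5.94, 5.81 and 6.6 at 5 weeks, and 5.78, 7.56, 5.93 and 7.33 at 11 weeks. Wild-type mice of 1 age spread widely, and mouse 1 at 5 weeks lay within the 1-week range. At 11 weeks the Npc1-/- mice read 3.95, 3.94, 3.1 and 3.97, and the difference was -2.91 ± 0.41 (adjusted p = 1.53e-07). No Npc1-/- array exceeded 5.54 for Hsd3b5 at any age, and as for Elovl3 its level there was not shown to be above background, so no fold is given. The difference was called at 5 weeks (-1.83 ± 0.41, adjusted p = 0.00141) and at 7 weeks (-2.50 ± 0.41, adjusted p = 5.99e-06). At 3 weeks it was -0.71 ± 0.41 (adjusted p = 0.257), although the genotypes did not overlap. The 2 wild-type mice with pancreas markers were the highest there (5.06 and 5.32), and without them it was -0.40 (adjusted p = 0.741). At 9 weeks it was -1.03 ± 0.41 (adjusted p = 0.0492), a call that 6 of the 8 fits without 1 mouse did not make (adjusted p up to 0.261). It was also lost without the filter (adjusted p = 0.0623). Mouse 2 of Npc1+/+ at 9 weeks, at 3.96, read as low as the mutants.

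Selenbp2 encodes a selenium-binding protein of hepatocytes that also binds acetaminophen. It was high in every mouse, 8.63 to 11.13, and from 3 weeks on its genotype differences were the smallest of the 4 male-predominant genes. At 7 weeks it read 8.71, 8.83, 9.03 and 8.8 in Npc1-/- mice, against 9.12, 9.29, 10.18 and 9.6 in Npc1+/+ mice. At 11 weeks it read 8.83, 8.75, 8.76 and 9.67 in Npc1-/- mice, against 9.47, 9.94, 10.44 and 9.86 in Npc1+/+ mice. The genotypes did not overlap at 7 weeks, and at 11 weeks only mouse 4 of Npc1-/- reached the wild-type range. The difference was -0.71 ± 0.20 at 7 weeks (adjusted p = 0.00558), -0.70 ± 0.20 at 9 weeks (adjusted p = 0.00495) and -0.92 ± 0.20 at 11 weeks (1.9-fold lower, adjusted p = 0.000166).
At 5 weeks it was -0.60 ± 0.20 (adjusted p = 0.037), which 5 of the 8 fits without 1 mouse did not call, and the 7-week call was lost without mouse 3 of Npc1+/+ (adjusted p = 0.0678). At 3 weeks the difference of -0.55 ± 0.20 missed the threshold (adjusted p = 0.0505), although the genotypes did not overlap. The difference was called under 5 alternatives to the fit (adjusted p 0.0083 with only these groups to 0.0455 with the stricter filter) and not under the others, and without the 2 wild-type mice with pancreas markers the difference was -0.35 (adjusted p = 0.453). A change of the genotype difference between ages did not pass (adjusted p = 0.604).

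Bcl6 and Cux2 are the repressors among the 6 genes. In Npc1+/+ mice from 7 weeks on Bcl6 spread widely within a group. It read 6.76, 9.11, 6.21 and 8.43 at 7 weeks, 8.88, 9.05, 6.18 and 5.97 at 9 weeks, and 5.92, 7.64, 6.41 and 8.92 at 11 weeks, with SDs of 1.37, 1.67 and 1.34 (n = 4 each). In Npc1-/- mice of these ages it read 6.24 to 7.02, 6.21 to 6.66 and 5.96 to 6.96, with SDs of 0.36, 0.2 and 0.46. The mutants thus lay within the range of the wild-type mice and lacked the high readings. The differences of -1.14 ± 0.53, -1.16 ± 0.53 and -0.94 ± 0.53 did not pass (adjusted p = 0.112, 0.0841 and 0.159). With any 1 mouse left out, the difference lay between -1.61 and -0.64 at 7 weeks (adjusted p 0.0262 to 0.441), between -1.68 and -0.65 at 9 weeks (0.0138 to 0.372) and between -1.38 and -0.37 at 11 weeks (0.0425 to 0.629). The calls were made without mouse 3 of Npc1+/+ at 7 weeks, mouse 3 or mouse 4 at 9 weeks and mouse 1 at 11 weeks.

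At 3 weeks Bcl6 read 6.03, 5.9, 6.22 and 7.05 in Npc1-/- mice, against 8.18, 8.15, 8.02 and 6.72 in Npc1+/+ mice. The difference of -1.47 ± 0.53 was at the threshold (adjusted p = 0.0499). It was not called in 6 of the 8 fits without 1 mouse (adjusted p up to 0.134), without the filter (adjusted p = 0.0682), nor without the 2 wild-type mice with pancreas markers, which were among the high ones (-1.07, adjusted p = 0.381). At 5 weeks the order was the other way, with 7.39, 7.04, 7.09 and 7.45 in Npc1-/- mice, against 6.44, 6.1, 6.1 and 6.39 in Npc1+/+ mice. These groups did not overlap, yet the difference of 0.99 ± 0.53 did not pass in the fit that shares the spread of all 12 groups (adjusted p = 0.246). In a fit of these 2 groups alone it did (adjusted p = 0.000376). In Npc1+/+ mice Bcl6 rose by 2.07 ± 0.53 between 1 and 3 weeks (adjusted p = 0.0015).

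Cux2 stayed within 6.05 to 7.89 over all mice. At 9 weeks it read 6.45, 6.32, 6.59 and 6.54 in Npc1-/- mice, against 7.71, 6.84, 7.62 and 7.14 in Npc1+/+ mice, and the groups did not overlap. The difference was -0.85 ± 0.21 (1.8-fold lower, adjusted p = 0.00146), and 9 weeks was the only one of the 6 ages at which Cux2 was called. In Npc1+/+ mice it fell by 0.54 ± 0.21 between 1 and 3 weeks (adjusted p = 0.0405), a call lost in 7 of the 8 fits without 1 mouse and under quantile normalization (adjusted p = 0.0744). Its genotype difference varied between ages (adjusted p = 0.037), which 10 of the 48 fits without 1 mouse did not call.

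Counted over the 6 measured genes, none was called at 1 week, where 5.69% of all genes tested were called in either direction. The lower calls numbered 3 at 3 weeks (6.84% of all genes were called lower), 4 at 5 weeks (against 2.88%), 4 at 7 weeks (against 11.0%), 5 at 9 weeks (against 15.5%) and 4 at 11 weeks (against 20.5%), and no gene of the 6 was called higher at any age. The median difference of the 6 genes was -0.03 at 1 week and -1.09, -1.21, -1.82, -1.1 and -1.92 at the ages from 3 weeks on.
As Elovl3 and Hsd3b5 entered the test through their Npc1+/+ levels, these counts and medians are descriptions. Over all genes tested the medians lay between -0.02 and 0.01.
A genotype difference that varied between ages was called for 4 of the 6 genes, as for 27.7% of all genes. An age effect was called in Npc1-/- mice for 2 genes, Mup3 and Selenbp2 (55.6% of all genes), and in Npc1+/+ mice for all 6 (53.3%). The filter nearly fixed these outcomes for Elovl3 and Hsd3b5, which passed it through Npc1+/+ mice alone. These counts, and those of the steps between ages below, are therefore descriptions too. Between 1 and 3 weeks, 4 genes rose in Npc1+/+ mice (15.4% of all genes) and Cux2 fell (21.5%), while in Npc1-/- mice 1 gene rose (11.0%), Selenbp2 by 0.56 ± 0.20 (adjusted p = 0.0302). Without the mouse with muscle markers that last call was lost (adjusted p = 0.145), and without the mice with pancreas markers 3 of the 5 calls in Npc1+/+ mice were made. Between 3 and 5 weeks Mup3 alone rose, in Npc1-/- mice (3.35% of all genes) and in Npc1+/+ mice (2.82%). Between 5 and 11 weeks Mup3 fell in Npc1-/- mice (12.5%), and in Npc1+/+ mice 0 of the 6 genes were called in either direction (0.19%).

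**Figure D2:**
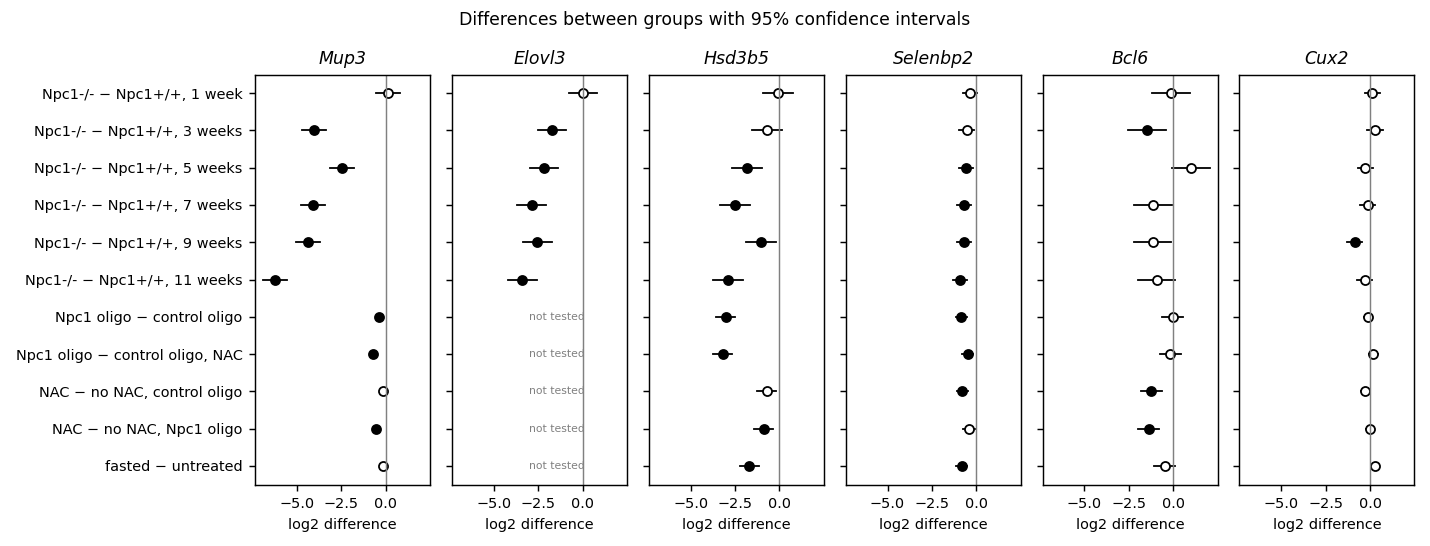
Differences between groups (log2, first group minus second) for the 6 genes with 95% confidence intervals from the limma fits, where filled circles passed at an adjusted p under 0.05 and open circles did not. The difference of Mup3 reaches -6.24 at 11 weeks and is -0.35 under the Npc1 oligo, whereas that of Hsd3b5 is -2.91 and -3.02.

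In the 12-week set Hsd3b5 carried the clearest change. Under the Npc1 oligo it read 5.86, 4.84, 5.93, 5.45 and 5.18, against 8.06, 8.45, 8.56, 8.6 and 8.72 under the control oligo. With NAC it read 4.87, 4.36, 4.94, 4.16 and 4.51 under the Npc1 oligo, against 8.13, 7.45, 8.3, 7.28 and 7.67 under the control oligo. The groups of each pair did not overlap. The difference was -3.02 ± 0.27 without NAC (adjusted p = 1.26e-09) and -3.20 ± 0.27 with NAC (adjusted p = 2.66e-10). These 2 differences were not told apart (difference -0.17 ± 0.38, 95% interval -0.94 to 0.59, adjusted p = 0.833). Under the Npc1 oligo Hsd3b5 exceeded the median of all values in 2 of 5 mice without NAC and in 0 of 5 with NAC. As in Npc1-/- mice, its level there was not shown to be above background, so no fold is given. How far it could still fall with NAC was not tested, so the 2 differences do not show like effects. Without NAC 3 of the 5 tested genes were called lower (7.88% of all genes), and with NAC again 3 (14.7%).

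Mup3, so strongly lower in Npc1-/- mice, moved little under the oligo. It read 11.42, 11.54, 11.32, 11.55 and 11.34 under the Npc1 oligo, against 11.87, 11.73, 11.73, 11.68 and 11.93 under the control oligo, a difference of -0.35 ± 0.08 (1.28-fold lower, adjusted p = 0.000935). With NAC it read 10.68, 11.06, 11.06, 10.83 and 10.72 under the Npc1 oligo, against 11.71, 11.65, 11.59, 11.63 and 11.45 under the control oligo, a difference of -0.74 ± 0.08 (1.67-fold lower, adjusted p = 1.69e-08). Both pairs were free of overlap. The difference was larger with NAC by -0.38 ± 0.11 (interaction, adjusted p = 0.0352, where 4.83% of all genes were called in either direction), a call lost in 11 of the 20 fits without 1 mouse (adjusted p up to 0.0747). With all 78 arrays in 1 fit, whose spread includes the age series, neither the interaction (adjusted p = 0.591) nor the difference without NAC (adjusted p = 0.32) was called. Mup3 read up to 11.98, where the highest deposited value of any probe set is 14.6, and the response of the probes at such levels was not tested.

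Selenbp2 was lower under the Npc1 oligo in both settings. It read 10.48, 9.65, 9.94, 9.96 and 9.91 under the Npc1 oligo, against 10.31, 10.68, 10.98, 11.06 and 11.13 under the control oligo, a difference of -0.85 ± 0.15 (1.8-fold lower, adjusted p = 0.000149). Mouse 1 of the Npc1 oligo group read above the lowest control. With NAC the difference was -0.48 ± 0.15 (adjusted p = 0.0203), not called in 3 of the 10 fits without 1 mouse. Elovl3 read 3.04 to 4.2 in all 30 mice of the set and was not tested there. Bcl6 and Cux2 differed by -0.03 ± 0.29 (95% interval -0.63 to 0.56) and -0.10 ± 0.11 (95% interval -0.33 to 0.13) without NAC, neither called.

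**Figure D3:**
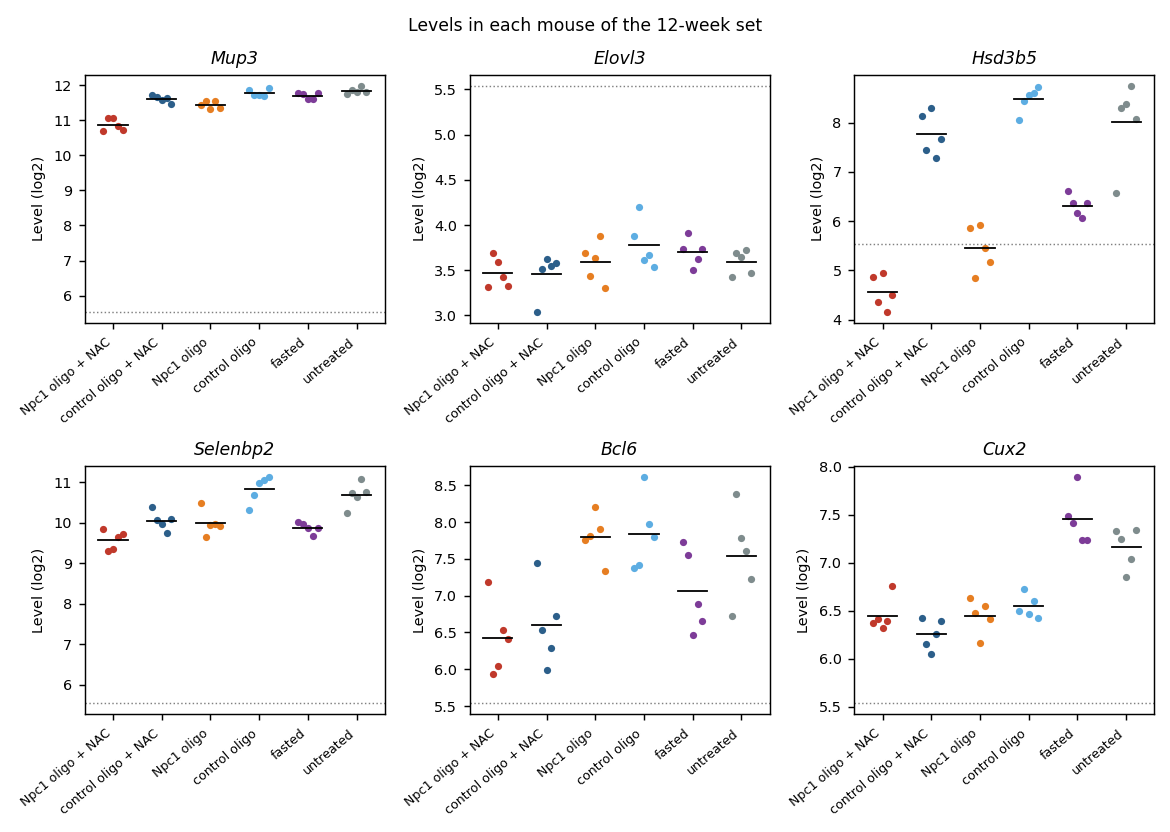
Levels (log2) of the 6 genes in each mouse of the 12-week set, with 1 column of 5 points per group, a bar at the group mean and a dotted line at 5.54, the median of all values. Hsd3b5 is low in both Npc1 oligo groups and intermediate in fasted mice, Mup3 stays near the top of its range in every group, and Bcl6 is lower in the groups given NAC.

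NAC itself was compared within each oligo, and each oligo group enters 2 of the 4 comparisons among oligo and NAC groups. With the Npc1 oligo, Bcl6 read 7.19, 5.93, 6.04, 6.53 and 6.41 with NAC, against 7.75, 7.81, 8.21, 7.9 and 7.34 without it. With the control oligo, Bcl6 read 7.45, 6.53, 5.99, 6.29 and 6.73 with NAC, against 7.38, 7.42, 8.61, 7.98 and 7.79 without it. Only mouse 1 of the control oligo with NAC reached the range of mice without NAC. Bcl6 was lower with NAC by -1.38 ± 0.29 under the Npc1 oligo (2.61-fold, adjusted p = 0.00277) and by -1.24 ± 0.29 under the control oligo (2.36-fold, adjusted p = 0.0078). Under the Npc1 oligo 3 of the 5 tested genes were lower with NAC (4.27% of all genes), Bcl6 with Mup3 (-0.56 ± 0.08, adjusted p = 1.7e-05) and Hsd3b5 (-0.88 ± 0.27, adjusted p = 0.0401). Under the control oligo 2 were lower (2.41% of all genes), Bcl6 with Selenbp2 (-0.78 ± 0.15, adjusted p = 0.00167). The Hsd3b5 call was lost in 6 of the 10 fits without 1 mouse. In the fit of all 78 arrays Bcl6 under the control oligo (adjusted p = 0.0719) and Mup3 (adjusted p = 0.193) and Hsd3b5 (adjusted p = 0.14) under the Npc1 oligo were not called. Beside these values, the Npc1 probe set read 8.77 to 9.96 under the control oligo with NAC, against 9.98 to 10.36 under the control oligo alone, and the part of this in the NAC comparisons was not tested.

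Fasting overnight moved few genes, 0.319% of all genes being called lower, and 2 of these 38 were Hsd3b5 and Selenbp2. Hsd3b5 read 6.61, 6.37, 6.17, 6.06 and 6.38 in fasted mice, against 6.58, 8.29, 8.38, 8.75 and 8.08 in untreated mice, and only mouse 1 of the untreated group lay in the fasted range. The difference was -1.70 ± 0.27 (3.25-fold lower, adjusted p = 0.00212). Selenbp2 read 10.01, 9.96, 9.87, 9.67 and 9.86 in fasted mice, against 10.25, 10.74, 10.63, 11.08 and 10.76 in untreated mice, without overlap. The difference was -0.82 ± 0.15 (1.76-fold lower, adjusted p = 0.0068). Both calls held in every fit without 1 mouse (adjusted p up to 0.0136 and 0.0459). Mup3 (-0.13 ± 0.08, adjusted p = 0.651), Bcl6 (-0.48 ± 0.29, adjusted p = 0.679) and Cux2 (0.29 ± 0.11, adjusted p = 0.383) did not pass.

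Control oligo mice, against untreated mice, differed in Cux2 alone among the 5 tested genes, by -0.62 ± 0.11 (1.53-fold, adjusted p = 0.000224), where 21.3% of all genes were called lower. Cux2 read 6.5, 6.73, 6.47, 6.6 and 6.43 with the control oligo, against 7.33, 7.25, 6.85, 7.04 and 7.34 in untreated mice. The groups did not overlap, and the other 3 oligo groups read 6.05 to 6.76.

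The genotype difference at 11 weeks was set against the oligo difference in 1 fit over all 78 arrays, a difference of 2 differences within their own sets. For Mup3 it was -5.89 ± 0.36 (adjusted p = 1.01e-21), more negative in Npc1-/- mice, where 27.7% of all genes were called in either direction. For Elovl3 it was -3.20 ± 0.44, given as a description: Elovl3 entered the test through Npc1+/+ mice of the age series alone, and it was about as low under the control oligo as in Npc1-/- mice, so that a decrease under the oligo could not have been seen. For Hsd3b5 it was 0.12 ± 0.52 (95% interval -0.91 to 1.15, adjusted p = 0.894) and for Selenbp2 -0.08 ± 0.26 (95% interval -0.60 to 0.44, adjusted p = 0.86). Neither value shows like effects: Hsd3b5 averaged 3.74 in Npc1-/- mice, against 6.65 in Npc1+/+ mice, but 5.45 under the Npc1 oligo, against 8.48 under the control oligo, and how far it could still fall in the mutants was not tested. The levels of Elovl3 in the mice compared against were far apart: it read 5.98 to 8.75 in Npc1+/+ mice at 11 weeks but 3.54 to 4.2 under the control oligo at 12 weeks.

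Over the 18 groups the genes took different orders. The 10 highest means of Mup3, 10.87 to 11.83, were those of the 6 groups of the 12-week set and of Npc1+/+ mice from 5 to 11 weeks, and the next, 8.84 in Npc1+/+ mice at 3 weeks, was 2.03 lower. The 5 highest means of Elovl3, 5.50 to 7.03, were those of Npc1+/+ mice from 3 to 11 weeks, and the other 13 groups lay between 3.46 and 3.80. Hsd3b5 was highest under the control oligo (8.48 ± 0.25, SD, n = 5), in untreated mice (8.02 ± 0.84) and under the control oligo with NAC (7.77 ± 0.44), above Npc1+/+ mice at 11 weeks (6.65 ± 0.92, n = 4), and all 6 Npc1-/- groups lay among the lowest 7. Most neighbours in these orders did not differ beyond their spread: of the 17 steps between neighbouring means, 12 for Mup3, 16 for Elovl3, 15 for Hsd3b5, 14 for Selenbp2, 16 for Bcl6 and 17 for Cux2 were no larger than the larger SD of the 2 groups.

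Correlations between the members over group means depended on the set. Over the 18 groups Pearson's r was 0.18 for Elovl3 with Hsd3b5 and 0.4 for Mup3 with Elovl3, but over the 12 groups of the age series alone it was 0.95 and 0.9. For Hsd3b5 with Selenbp2 it was 0.87 over 18 groups, 0.72 in the age series and 0.87 in the 12-week set. For Cux2 with the other members r lay between -0.06 and 0.23 over 18 groups. Within the sets it lay between -0.17 and 0.3 in the age series and between 0.11 and 0.47 in the 12-week set. These values describe the groups, which share a scaling. The groups of the age series also share a contrast of genotype, which the 12-week set does not hold.

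Relatives of Mup3 show where the 2 sets part. A probe set shared by Mup6, Mup16 and pseudogenes of the cluster averaged 4.96 in Npc1-/- mice, against 9.64 in Npc1+/+ mice, at 11 weeks, and 5.75 in untreated mice of the 12-week set. It was thus high in the groups where Elovl3 was high, while Mup3 itself was high in both sets. Mup21, a member with its own probe set, averaged 3.87 in Npc1-/- mice, against 6.02 in Npc1+/+ mice, at 11 weeks (difference -2.15 ± 0.17, adjusted p = 1.02e-14) and 5.29 in untreated mice. It too entered the test through Npc1+/+ mice alone. Many, though not all, Mup genes are near-identical copies, so signal of one member on the probes of another was possible and was not tested. For Hsd3b5, 2 further probe sets that carry Hsd3b5 with Hsd3b4 held the same values as each other and ran with it (r = 0.94 over 18 groups). Hsd3b2 and Hsd3b3 were also lower under the Npc1 oligo without NAC (-0.71 ± 0.15, adjusted p = 0.000658, and -0.85 ± 0.11, adjusted p = 8.8e-07), where 7.88% of all genes were called lower. Other relatives moved little there: Hsd3b6 averaged 5.17 under the Npc1 oligo, against 5.2 under the control oligo. For Hsd3b7 these means were 10.96 against 11.08, and for Hsd3b1 3.2 against 3.34. Selenbp1, the close relative of Selenbp2, was lower in Npc1-/- mice at 11 weeks by a smaller amount (-0.37 ± 0.14, adjusted p = 0.0397).

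**Figure D4:**
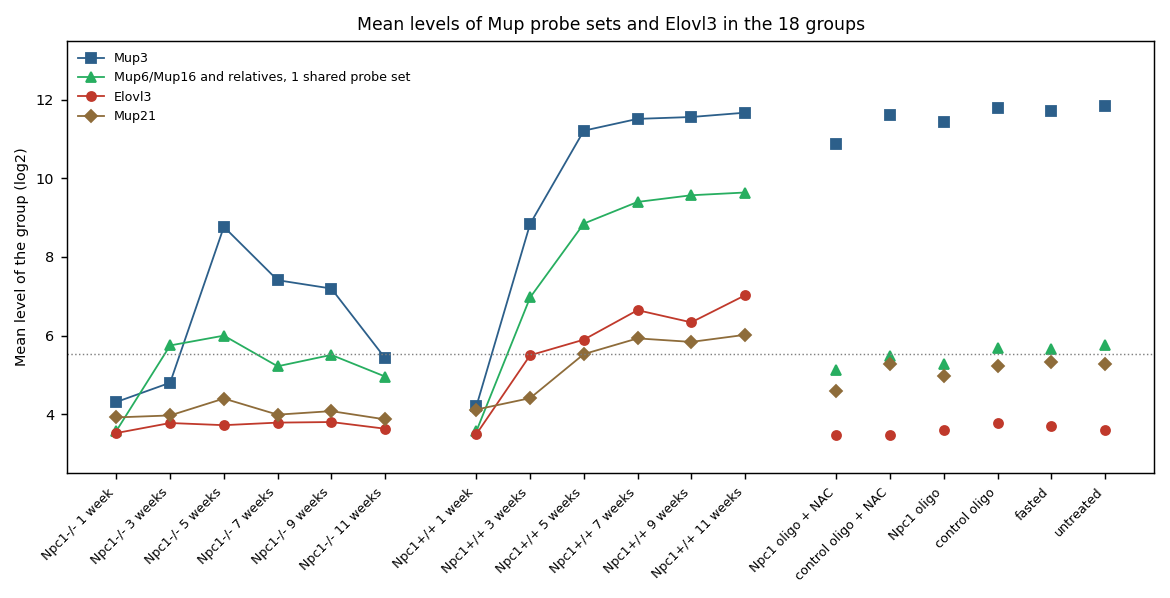
Mean levels (log2) of 4 probe sets in the 18 groups: Mup3 as squares, a probe set shared by Mup6, Mup16 and relatives as triangles, Elovl3 as circles and Mup21 as diamonds, with ages joined by lines and a dotted line at 5.54. In the 12-week set at the right, Mup3 is as high as in Npc1+/+ mice of the age series, while the shared Mup probe set and Elovl3 are not.

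By likeness over the 18 group means, among 12237 genes, the 5 genes nearest to Mup3 were Abhd3 (r = 0.971), Hgd (0.965), Txndc15 (0.962), Aamdc (0.961) and Cyp7b1 (0.954), the last an oxysterol hydroxylase that predominates in male liver. Nearest to Elovl3 were Slco1a1 (0.946), an organic anion transporter of male liver, and Sult3a1 (0.925), a sulfotransferase of female liver. Nearest to Hsd3b5 were Nars2 (0.896) and Slc35a1 (0.892), to Selenbp2 Cox6c (0.915) and Selenbp1 (0.89), to Bcl6 Hpd (0.868) and Gorasp1 (0.847), and to Cux2 Gab1 (0.865) and Dusp7 (0.85). Several of these moved over a narrow range, such as Nars2 between 7.29 and 7.83, against 3.74 to 8.48 for Hsd3b5.

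The growth hormone pathway itself was described by a list of 13 genes. At 11 weeks 5 of the 13 were lower in Npc1-/- mice and 2 higher, with a median of -0.25, against -0.02 over all genes tested, of which 20.5% were called lower and 18.8% higher. Lower were Igfals, the partner that holds IGF1 in the circulation (-2.28 ± 0.20, adjusted p = 2.76e-13), Ghr, the growth hormone receptor (-1.54 ± 0.11, adjusted p = 2.16e-15), and Igf1 (-0.85 ± 0.11, adjusted p = 1.77e-08), and Igfbp3, an IGF-binding protein, was higher (0.74 ± 0.11, adjusted p = 3.84e-07). At 3 weeks 2 of the 13 were called, both lower (6.84% of all genes were called lower and 8.9% higher): Igfals (-0.62 ± 0.20, adjusted p = 0.0238) and Hnf4a (-0.45 ± 0.10, adjusted p = 0.00169). At 5 weeks 3 were lower and 2 higher (2.88% and 9.69% of all genes), at 7 weeks 4 and 1 (11.0% and 14.3%), and at 9 weeks 5 and 2 (15.5% and 17.6%). Under the Npc1 oligo 4 of the 13 were lower and 1 higher without NAC (7.88% and 14.7% of all genes), and 6 lower and 0 higher with NAC (14.7% and 11.0%). Without NAC, Igfals (-0.94 ± 0.11, adjusted p = 5.02e-07) and Ghr (-0.51 ± 0.07, adjusted p = 4.86e-06) were lower and Hnf4a was higher (0.37 ± 0.07, adjusted p = 0.000264). In fasted mice 0 of the 13 were called, where 0.529% of all genes were called in either direction.

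With the control oligo, 3 of the 13 pathway genes were higher with NAC and 1 was lower, where 6.09% of all genes were called higher and 2.41% lower. Socs2 (1.21 ± 0.21, adjusted p = 0.000514) and Cish (0.62 ± 0.19, adjusted p = 0.0385), both inhibitors that STAT5 induces, and Onecut1, a hepatocyte transcription factor (1.46 ± 0.22, adjusted p = 0.000117), were the higher ones, and Ghr was lower (-0.22 ± 0.07, adjusted p = 0.0484). With the Npc1 oligo, Cish (0.80 ± 0.19, adjusted p = 0.00782) was higher with NAC and Ghr lower (-0.40 ± 0.07, adjusted p = 0.000494), and these were the 2 of the 13 called, where 2.88% of all genes were called higher and 4.27% lower.

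Other male-predominant genes (19 listed, 15 on the array, 11 tested in the age series) and other female-predominant genes (21 listed, 15 on the array, 14 tested) were compared in the same way. At 11 weeks 7 male-predominant genes were lower and 1 higher, with a median of -0.82, and 9 female-predominant genes were lower and 2 higher, with a median of -1.5, where 20.5% of all genes were called lower and 18.8% higher. Mup21 and Slco1a1 in the male-predominant list and Sult3a1 in the female-predominant list had no Npc1-/- array above 5.54, so they entered the test through Npc1+/+ mice alone, and the counts and medians are descriptions. Slco1a1 (-5.93 ± 0.32, adjusted p = 7.01e-20), Cyp7b1 (-2.64 ± 0.18, adjusted p = 4.15e-16), Mup21 and Nudt7 (-2.09 ± 0.24, adjusted p = 6.71e-10) led the male-predominant list. Sult3a1 (-5.98 ± 0.25, adjusted p = 1.38e-23), Slc22a26 (-2.73 ± 0.24, adjusted p = 4.77e-13) and A1bg (-2.39 ± 0.40, adjusted p = 3.28e-06) were lower in the female-predominant list, and Atp6v0d2, which macrophages also express, was higher (3.64 ± 0.24, adjusted p = 3.21e-17). At 3 weeks 4 of 11 male-predominant genes were lower and 0 higher, and 3 of 14 female-predominant genes were lower and 1 higher (6.84% and 8.9% of all genes). At 1 week 0 male-predominant genes were lower and 1 higher, and 2 female-predominant genes were lower and 0 higher (2.78% and 2.91% of all genes).
Under the Npc1 oligo without NAC 2 of 8 tested male-predominant genes were lower and 1 higher, with a median of 0, and 7 of 13 female-predominant genes were lower and 1 higher, with a median of -0.51, against 0.02 over all genes, of which 7.88% were called lower and 14.7% higher. Nudt7 (-1.36 ± 0.11, adjusted p = 3.06e-10) and Cyp7b1 (-1.05 ± 0.17, adjusted p = 2.75e-05) were the lower male-predominant genes. In fasted mice Nudt7 (-0.60 ± 0.11, adjusted p = 0.00551) was the 1 male-predominant gene called, where 0.319% of all genes were called lower.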

How the data were processed

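Liver RNA of 78 female mice was hybridised to 1 Affymetrix array each. The deposited values are log2 levels per probe set, made by the authors with RMA in Partek 6.5, per the submitters' processing notes; how arrays were scaled to each other is not given in the sources used here. Array medians lay between 5.35 and 5.65, and no 2 arrays held identical values. Array data have no read depth, so the number of arrays limits the precision.

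Of 35556 probe sets, 21789 carry 1 gene symbol in the platform annotation, 1621 several and 12146 were unnamed here. The probe set with the highest mean stood for each gene. Tests were made with limma 3.58.1 in R 4.3.3 (lmFit with 1 mean per group, eBayes, Benjamini-Hochberg), separately for the age series (48 arrays) and the 12-week set (30 arrays), and over all 78 arrays for the 11-week genotype difference minus the oligo difference. Genes had to exceed 5.54 in 4 arrays, and the threshold was an adjusted p of 0.05. Intervals are 95%.

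The members, gene lists and tests were chosen with earlier results of these data known, and no list is independent evidence. The genes named beside the members are up to 4 per list and comparison, past the threshold with the largest change, relatives of Mup3, Hsd3b5 and Selenbp2, and by likeness the 5 nearest to Mup3 and the 2 nearest to each other member. The p-values set each difference against the spread between mice within groups, pooled over all groups of the fit and moderated across genes. Mice share replicate numbers across groups, but only 10 of 54 pairs correlated above 0.1 (-0.329 to 0.284), so numbers were not taken as pairs. On simulated data with 200 genes changed by 1 on the log2 scale, the fit recovered 99% of them for the 3-week genotype comparison (12638 genes) and 99% for the oligo comparison without NAC (11900 genes). Of the calls, 12 of 210 and 10 of 208 were false. The test of a genotype difference varying between ages recovered 96%. Each simulated gene had the same spread in all groups, unlike Bcl6 (SD 0.07 to 1.67), so these shares do not hold for every member. Alternatives covered normalization, filter, threshold, samples in the fit, replicate block and each mouse left out.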

Additional observations from a re-analysis of the deposited data

Results flagged for a closer look

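Each of the 6 genes was checked in each of the 18 groups, 108 sets of 4 or 5 values in which the genes share the same mice. In 9 of these sets 1 mouse lay apart from the others by Dixon's criterion, which chance meets in about 1 of 20 sets. In Npc1-/- mice these were Mup3 at 5 weeks in mouse 3 (7.19), Hsd3b5 at 9 weeks in mouse 2 (4.65) and at 11 weeks in mouse 3 (3.1), Selenbp2 at 11 weeks in mouse 4 (9.67) and Bcl6 at 7 weeks in mouse 4 (7.02). In Npc1+/+ mice they were Bcl6 at 3 weeks in mouse 4 (6.72) and Cux2 at 7 weeks in mouse 1 (7.51). In the 12-week set they were Cux2 in mouse 5 of the Npc1 oligo with NAC (6.76) and Elovl3 in mouse 1 of the control oligo with NAC (3.04).

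The genotype difference varied between ages for Mup3 (limma moderated F test, adjusted p = 2.34e-13), Elovl3 (adjusted p = 0.000112), Hsd3b5 (adjusted p = 0.000858) and Cux2 (adjusted p = 0.037). Elovl3 and Hsd3b5 entered this test through Npc1+/+ mice alone and stayed low in Npc1-/- mice. Their values here are descriptions that restate the course in Npc1+/+ mice. The oligo difference of Mup3 was more negative with NAC by -0.38 (limma interaction, adjusted p = 0.0352). The genotype difference at 11 weeks was more negative than the oligo difference by -5.89 for Mup3 (adjusted p = 1.01e-21) and -3.20 for Elovl3 (adjusted p = 2.61e-08). Elovl3 was about as low under the control oligo as in Npc1-/- mice and entered the test through Npc1+/+ mice alone, so this value shows no weaker action of the oligo on it.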

How the results depend on the processing

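Over 14 alternatives other than leaving out 1 mouse, 1245 single values were compared with the main fit. Of these, 1197 kept their side of the threshold, 33 lost the call and 15 gained it. With a call in either fit, 0 changed sign, and sign changes of values called in neither fit were counted as kept. Taking the mean of probe sets could not move the members, which have 1 probe set each (113 of 113 kept). The threshold of 0.01 reused the main values and could only lose calls. Counts of called genes changed by over 1.5 times as follows. With only the compared groups in the fit, the calls were 2 at 5 weeks, 2 at 7 weeks and 3 at 9 weeks for genotype (Elovl3 and Hsd3b5, above 5.54 in under 4 mice of these groups, were not tested there, and 1 of the calls at 5 weeks was Bcl6 higher, 0.99), 2 between 3 and 5 weeks in Npc1+/+ mice, and in Npc1-/- mice 2 between 1 and 3, 2 between 3 and 5 and 2 between 5 and 11 weeks. With all arrays in 1 fit they were 2 between 3 and 5 weeks in Npc1+/+ mice, 1 for NAC with the control oligo, 1 for NAC with the Npc1 oligo and 0 for the interaction. At a threshold of 0.01 they were 1 for the age effect in Npc1-/- mice, 0 between 1 and 3 weeks there and 0 for the interaction, which was also 0 without a filter. Without the 2 mice with pancreas markers, 3 genes were called between 1 and 3 weeks in Npc1+/+ mice, and without the mouse with muscle markers 0 in Npc1-/- mice. With each mouse left out in turn, the calls ranged from 0 to 1 between 1 and 3 weeks in Npc1-/- mice, 1 to 2 between 3 and 5 weeks in Npc1+/+ mice, 1 to 3 for the age effect in Npc1-/- mice and 0 to 1 for the interaction. With replicate number as a block, 111 of 113 single values kept their call: Hsd3b5 at 9 weeks lost it (adjusted p = 0.0537) and Selenbp2 at 3 weeks gained it (adjusted p = 0.0401). Group means moved by at most 0.08 under quantile normalization and 0.09 under median centring. The cause of the other changes was not tested.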

Other observations

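In Npc1+/+ mice of the age series the mice with the highest Elovl3 at 7 and 11 weeks, mouse 4 in both groups (8.24 and 8.75), also had high Bcl6 (8.43 and 8.92). Other mice went the other way: mouse 2 had the highest Bcl6 at 7 weeks (9.11) with Elovl3 at 6.47, below mouse 3 (Elovl3 6.63, Bcl6 6.21), and at 11 weeks mouse 2 had Bcl6 at 7.64 with the lowest Elovl3 (5.98). At 9 weeks Bcl6 was high in mice 1 and 2 (8.88 and 9.05), where Elovl3 read 6.44 and 7.35, against 5.52 and 6.04 in mice 3 and 4. The mice were picked out after their values were seen, and the relation was not tested.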
